A study of Homo sapiens with 8 samples.

Results

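The genes that write, erase or metabolically tune DNA methylation were followed through RNA pulled down from edited human leukaemia cells. The 8 members were DNMT1, DNMT3A, DNMT3B, TET1, TET2, TET3, IDH1 and IDH2, found by matching the table's gene identifiers to symbols, and all 8 were present among 63140 genes. All 8 also passed the filter on low counts, which kept 24057 genes. DNA methyltransferases add a methyl group to cytosine, mostly where it precedes guanine (a CpG), and TET enzymes oxidise that methyl group in a reaction that consumes 2-oxoglutarate. IDH1 and IDH2 make 2-oxoglutarate, and their mutant forms in leukaemia make 2-hydroxyglutarate, which inhibits TET enzymes. DNMT3A, TET2, IDH1 and IDH2 are recurrently mutated in acute myeloid leukaemia, and the counts used here carry no information on mutations.

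By their labels, the libraries came from MOLM13 and OCI-AML4, established lines grown from acute myeloid leukaemia, and were collected on day 3 after editing. Whether each library is of its labelled line could not be checked. Cells had been nucleofected with Cas9 ribonucleoprotein, which cuts DNA (labelled as a gene knockout, KO), or with a cytosine base editor (CBE). A CBE turns C into T without cutting through both strands. Guides were aimed at HOTSCRAMBL, a long non-coding RNA gene, or at AAVS1, the control site in an intron of PPP1R12C, whose cells carry a WT genotype label. The 4 groups, HOTSCRAMBL KO and HOTSCRAMBL CBE with the controls AAVS1 KO and AAVS1 CBE, each held 2 libraries, replicate 1 labelled MOLM13 and replicate 2 labelled OCI-AML4. All were edited and nucleofected cells, and no untouched cells are among the samples. Efficiency of editing, clonality and separate cultures per library are not stated, so p-values measure the spread between these libraries only, which may be technical.

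The assay was ChIRP, in which glutaraldehyde-fixed and sonicated lysate is hybridised to biotinylated probes and the RNA held on streptavidin beads is sequenced. The labels name neither the probes' target nor an input library, so each level below is an amount of RNA in a pull-down and not the cell's whole expression. Levels are CPM (counts scaled to library size) after TMM scaling, which evens out library composition, and log2 fold changes and adjusted p-values come from edgeR's quasi-likelihood test with Benjamini-Hochberg adjustment over all 24057 genes and a threshold of 0.05. No gene of the count table bears the name HOTSCRAMBL (0 matches), so the edited gene is not analysed here. Total counts ran from 20548300 to 37970163 per library. Libraries sharing a line label deviated together only weakly from their group means, with r across genes from 0.00851 to 0.0245 over all tested genes and from 0.0386 to 0.112 over those above the median level (6 pairs of groups), so the line is given below as a label. Myeloid markers were plentiful, at 2099 to 2538 CPM summed over 10 genes, while erythroid, T cell, B cell and stromal or epithelial lists summed to at most 11 CPM in any library and HBB, CD3E, CD2 and COL3A1 were at 0.

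The sequence before a gene's start shows the substrate of these enzymes on their own genes. The windows shown belong to the 3 members with a single start in the RefSeq promoter table (GRCh38.p14): DNMT1, the most abundant member, and DNMT3B and IDH2, whose changes were the largest that passed a test. Each holds the 250 bases before the start, 5′ to 3′ on the gene's strand, with every CpG in capitals.

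DNMT1: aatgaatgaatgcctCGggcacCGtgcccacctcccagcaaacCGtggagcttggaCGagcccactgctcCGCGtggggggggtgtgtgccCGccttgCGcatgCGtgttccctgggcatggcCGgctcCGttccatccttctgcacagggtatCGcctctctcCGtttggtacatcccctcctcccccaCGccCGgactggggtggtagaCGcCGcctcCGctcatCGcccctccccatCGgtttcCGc
DNMT3B: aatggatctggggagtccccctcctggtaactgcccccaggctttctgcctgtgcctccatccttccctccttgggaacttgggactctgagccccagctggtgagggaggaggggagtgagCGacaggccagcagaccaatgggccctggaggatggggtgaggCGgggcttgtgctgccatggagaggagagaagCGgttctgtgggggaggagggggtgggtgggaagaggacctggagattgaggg
IDH2: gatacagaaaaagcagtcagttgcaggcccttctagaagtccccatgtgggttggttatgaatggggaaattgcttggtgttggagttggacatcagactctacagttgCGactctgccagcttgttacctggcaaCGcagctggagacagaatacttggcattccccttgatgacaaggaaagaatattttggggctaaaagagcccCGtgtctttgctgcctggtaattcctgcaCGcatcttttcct

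The DNMT1 window (chr19:10194954-10195203, minus strand) held 21 CpG, more than 69.8% of the 35116 windows of the same length in that table. The DNMT3B window (chr20:32779602-32779851, plus strand) held 3 and the IDH2 window (chr15:90100622-90100871, minus strand) held 4. The letters CG read the same on both strands, 93.9% of all windows held them at least once, and the median window held 11. These starts lie 36333, 17467 and 1856 bases inside the spans over which DNMT1, DNMT3B and IDH2 were counted. The counts therefore also take in transcripts from other starts. Sequence before the outer ends of these spans is not shown, so the windows do not describe every promoter of these genes. Among the other members, the windows of DNMT3A held 12 to 33 CpG over 6 starts, those of TET1 4 to 11 over 3 starts, those of TET2 10 and 34, those of TET3 37 and 27, and those of IDH1 13 and 17. The count of CpG describes these letters only, and methylation was not measured.

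The members spanned a wide range of levels when counts were divided by gene length, taken over all annotated exons. The order below depends on that length. By median CPM without it, DNMT1 and TET3 also led and TET1 was last. IDH2 (31.6 CPM) then stood below DNMT3B (37.3), IDH1 (44.6), DNMT3A (92.3) and TET2 (98.2). DNMT1, which copies methylation to the new strand after replication, led with 37.2 ± 5.61 CPM per kilobase (SD over the 8 libraries), above 95.2% of tested protein-coding genes. TET3 followed at 20.8 ± 2.92 CPM per kilobase, then the mitochondrial enzyme IDH2 at 13.5 ± 4.58 and its cytosolic and peroxisomal relative IDH1 at 9.34 ± 1.60. The enzymes that set methylation anew stood lower, DNMT3A at 6.66 ± 1.30 and DNMT3B at 4.90 ± 1.53 CPM per kilobase, with TET2 between them at 5.69 ± 0.859. TET1 was last at 0.508 ± 0.352 CPM per kilobase, above only 17.3% of protein-coding genes.

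DNMT1 stood above TET3, and DNMT3B above TET1, in 8 of 8 libraries without overlap of their ranges. IDH1 exceeded DNMT3A in 8 of 8 libraries too, although their ranges over libraries overlapped. The remaining neighbours in that order changed places between libraries, with TET3 above IDH2 in 6 of 8, IDH2 above IDH1 in 7 of 8, DNMT3A above TET2 in 5 of 8 and TET2 above DNMT3B in 6 of 8.

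**Figure D1:**
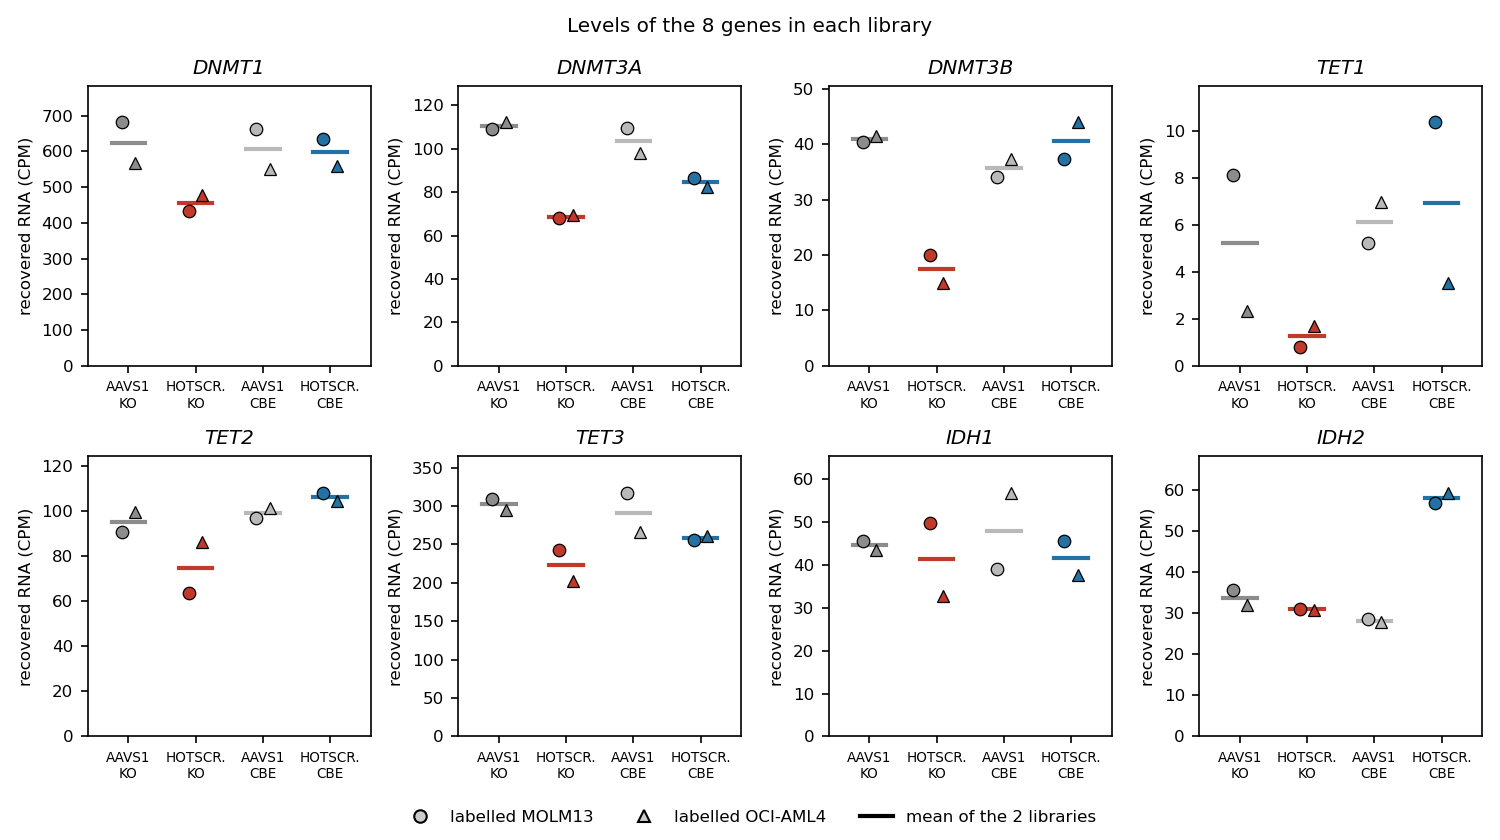
Level of each of the 8 genes in every library (vertical axis, recovered RNA in CPM after TMM scaling, starting at 0 and scaled per gene; horizontal axis, group). Circles are libraries labelled MOLM13, triangles those labelled OCI-AML4, and bars the mean of 2 libraries. The HOTSCRAMBL KO libraries are lowest for DNMT1, DNMT3A, DNMT3B and TET3, and also for TET1 and TET2, which were not called. The HOTSCRAMBL CBE libraries are highest for IDH2.

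With Cas9 editing of HOTSCRAMBL, all 3 DNA methyltransferases and TET3 fell against the AAVS1 control, and neither IDH gene passed the test. That is 4 of 8 members called, all lower, where 8.76% of the 24057 tested genes were called in either direction with 4.25% lower and 4.51% higher. Among tested protein-coding genes 13.1% were called, and among the 12028 tested genes above the median level 16.1% were. The fitted log2 fold change was below 0 for all 8 members and its median was −0.44, beside −0.01 over all tested genes. In such bulk pull-down libraries fewer cells of a type, less RNA per cell and less recovery of that RNA on the beads cannot be told apart.

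DNMT3B fell the most of the 4. Its level was 40.4 and 41.5 CPM in the AAVS1 KO libraries and 20.1 and 14.9 CPM in the HOTSCRAMBL KO libraries, giving MOLM13 first in each pair here and below. Both edited libraries lay far under both controls, with no overlap. The fold change was −1.24 on the log2 scale (SE 0.295, 95% interval −1.85 to −0.63, edgeR adjusted p 0.00617).

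DNMT3A, its partner in setting methylation and the more abundant of the 2, had 109 and 112.1 CPM in the controls against 67.9 and 69.4 CPM after HOTSCRAMBL KO. The groups did not overlap, and libraries within a group differed little. Its log2 fold change was −0.68 (SE 0.169, edgeR adjusted p 0.00849). The DNMT3A count per DNMT3B count, which needs no scaling between libraries, was 2.69 and 2.70 in AAVS1 KO and 3.38 and 4.65 in HOTSCRAMBL KO. It was 3.21 and 2.62 in AAVS1 CBE, the first near the lower HOTSCRAMBL KO value, and 2.32 and 1.88 in HOTSCRAMBL CBE.

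DNMT1, the maintenance enzyme, stood at 681 and 568 CPM in AAVS1 KO and at 435 and 479 CPM in HOTSCRAMBL KO. The edited libraries were again the lower ones without overlap, with a larger step under the MOLM13 label (log2 ratio −0.65) than under the OCI-AML4 label (−0.25). The fitted log2 fold change was −0.44 (SE 0.104, edgeR adjusted p 0.00609). Per kilobase, DNMT1 made up 74.3 ± 2.83% of the RNA of the 3 methyltransferase genes in AAVS1 KO and 79.7 ± 2.09% in HOTSCRAMBL KO (SD, n = 2). DNMT3B made up 10.97 ± 1.20% and 6.88 ± 1.72%, shares that were not tested.

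TET3, the most abundant of the methylcytosine oxidases here, went from 309.7 and 295 CPM to 243 and 202 CPM. Both HOTSCRAMBL KO libraries were below both controls. The log2 fold change was −0.45 (SE 0.119, edgeR adjusted p 0.0157), and this call alone among the 4 was lost without the line term in the model (edgeR adjusted p 0.066).

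TET2, a frequent target of loss-of-function mutation in myeloid cancers, had 90.5 and 99.5 CPM in the controls and 63.5 and 86.2 CPM after HOTSCRAMBL KO. The groups did not overlap, but the edited libraries differed widely, and the log2 fold change of −0.34 (95% interval −0.70 to 0.02) did not pass (edgeR adjusted p 0.285). TET1, the founding member of the family, was sparse, with 207 and 58 counts in AAVS1 KO and 16 and 38 counts in HOTSCRAMBL KO. The groups did not overlap, and its controls differed from each other by more than the lower control differed from the edited libraries. The log2 fold change of −1.99 had a 95% interval from −3.94 to −0.04 and missed the threshold (edgeR adjusted p 0.237).

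IDH1 had 45.5 and 43.6 CPM in AAVS1 KO and 49.9 and 32.7 CPM in HOTSCRAMBL KO. The edited libraries fell on either side of the controls, and the log2 fold change was −0.12 (95% interval −0.67 to 0.42, edgeR adjusted p 0.843). IDH2 was at 35.6 and 32.0 CPM against 31.1 and 30.8 CPM, groups that did not overlap, with a log2 fold change of −0.13 (95% interval −0.67 to 0.41, edgeR adjusted p 0.838). The IDH1 and IDH2 intervals still allow a fall or rise of moderate size. As IDH2 shows, such small groups can lie apart without a call. The share of all tested genes whose groups lay apart was not counted, so a lack of overlap is a description only.

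The 4 calls rest on every KO library and on the spread pooled over all 8 libraries. With only the 4 KO libraries in the fit none of them passed (edgeR adjusted p 0.0821 to 0.114), and none passed without AAVS1 KO replicate 1 or replicate 2. DNMT3B alone passed without HOTSCRAMBL KO replicate 1 and DNMT1 alone without HOTSCRAMBL KO replicate 2. In each of these fits all 4 log2 fold changes stayed below 0.

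The make-up of the libraries moved with the same groups. Mitochondrially encoded genes took 6.77% and 6.84% of counts in AAVS1 KO and 10.7% and 11.9% in HOTSCRAMBL KO, while base-edited controls had 7.14% and 7.23% and HOTSCRAMBL CBE had 11.6% and 10.2%. Cytosolic ribosomal protein genes took 1.36% and 1.56%, then 3.98% and 4.46% in HOTSCRAMBL KO, and 1.32% and 1.60% in the CBE controls, then 3.20% and 3.38%. Scaling without both classes left all 4 calls in place. Unscaled library sizes also kept them, but there the median of all genes moved to −0.17. With that shift 840 genes were called higher and 1695 lower in place of 1085 and 1023. Lower calls were favoured under it, so keeping these 4 is little check. Of 9 myeloid markers tested with KO, LYZ (2.20) and CEBPA (1.00) rose and AZU1 (−0.89) and ELANE (−0.57) fell on the log2 scale; LYZ and CEBPA share 34.7% and 43.9% of their exonic bases with other genes. With CBE, CEBPA (0.61) and PTPRC (0.67) rose and none of the 9 fell, and DESeq2 called 6 of the 9 with KO and 4 with CBE. The part of these shifts in the members' changes was not tested.

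**Figure D2:**
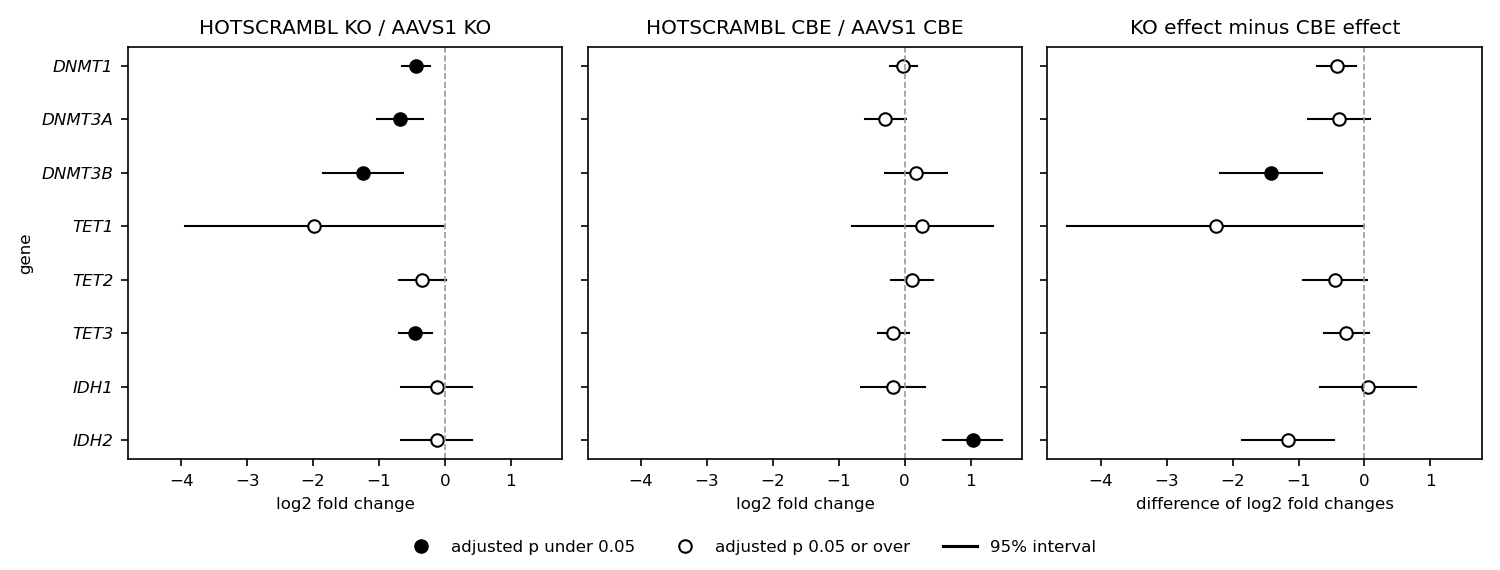
Fitted log2 fold change of each gene with its 95% interval (horizontal axis) for KO, for CBE, and for the KO effect minus the CBE effect, with genes on the vertical axis. Filled circles passed an edgeR adjusted p of 0.05: DNMT1, DNMT3A, DNMT3B and TET3 lie below 0 with KO, IDH2 above 0 with CBE, and DNMT3B below 0 for the difference.

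With base editing of HOTSCRAMBL, IDH2 rose and no methyltransferase or TET gene passed. Of the 8 members 1 was called, in a comparison where 8.83% of the tested genes were called with 4.56% higher and 4.27% lower. The share called was 13.7% among protein-coding genes and 16.8% among genes above the median level, so a count of 1 in 8 is near the background. The members' median log2 fold change was 0.04, beside −0.02 over all tested genes.

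IDH2, which makes 2-oxoglutarate in mitochondria, was at 28.5 and 27.9 CPM in AAVS1 CBE and at 56.8 and 59.3 CPM in HOTSCRAMBL CBE. The edited libraries were about level with each other, far above their controls and above all 4 KO libraries. The log2 fold change was 1.04 (SE 0.217, 95% interval 0.59 to 1.48, edgeR adjusted p 0.0019). The call was lost when any of the 4 CBE libraries was left out (edgeR adjusted p 0.0571 to 0.0855), with log2 fold changes between 0.98 and 1.11.

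IDH1 showed no such step, with 39.1 and 56.8 CPM in AAVS1 CBE against 45.7 and 37.6 CPM in HOTSCRAMBL CBE, groups that overlapped. Its log2 fold change was −0.18 (95% interval −0.66 to 0.30, edgeR adjusted p 0.735). The IDH2 count per IDH1 count was 1.24 and 1.58 in HOTSCRAMBL CBE. In the other 6 libraries it lay between 0.491 and 0.940. Per kilobase, IDH2 made up 70.2 ± 3.49% of the RNA of both genes in HOTSCRAMBL CBE and 50.2 ± 6.97% in AAVS1 CBE (SD, n = 2).

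DNMT3A was the methyltransferase nearest to a call with CBE. It had 109 and 98.0 CPM in the controls and 86.7 and 82.4 CPM after HOTSCRAMBL CBE. The groups did not overlap, and the log2 fold change of −0.29 (95% interval −0.61 to 0.02) did not pass (edgeR adjusted p 0.289). DNMT3A was lower in the HOTSCRAMBL library in 4 of 4 pairs of same-labelled libraries over both editors, and the same held for TET3. The share of all tested genes with such signs was not counted, so this is a description only.

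DNMT1 was at 662 and 552 CPM in AAVS1 CBE and at 635 and 560.1 CPM in HOTSCRAMBL CBE. These groups overlapped and the log2 fold change was −0.02 (95% interval −0.23 to 0.19, edgeR adjusted p 0.938). DNMT3B had 34.1 and 37.3 CPM in the controls and 37.3 and 43.9 CPM after editing, a log2 fold change of 0.18 (95% interval −0.29 to 0.65, edgeR adjusted p 0.725). The DNMT3B groups overlapped at their nearest libraries.

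The TET genes did not pass with CBE. TET2 stood at 96.9 and 101 CPM against 108 and 104 CPM, TET3 at 317 and 266 CPM against 256 and 261 CPM, and TET1 at 5.22 and 7.00 CPM against 10.4 and 3.54 CPM. Their log2 fold changes were 0.11, −0.17 and 0.27, with edgeR adjusted p of 0.76, 0.433 and 0.829. The sign for TET2 changed to −0.03 without TMM scaling and to −0.02 without HOTSCRAMBL CBE replicate 1, and that for TET1 changed when AAVS1 CBE replicate 1 (−0.86) or HOTSCRAMBL CBE replicate 1 (−0.59) was left out. The sparse TET1 counts, 90 to 374 in the CBE libraries, limit what can be seen there.

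**Figure D3:**
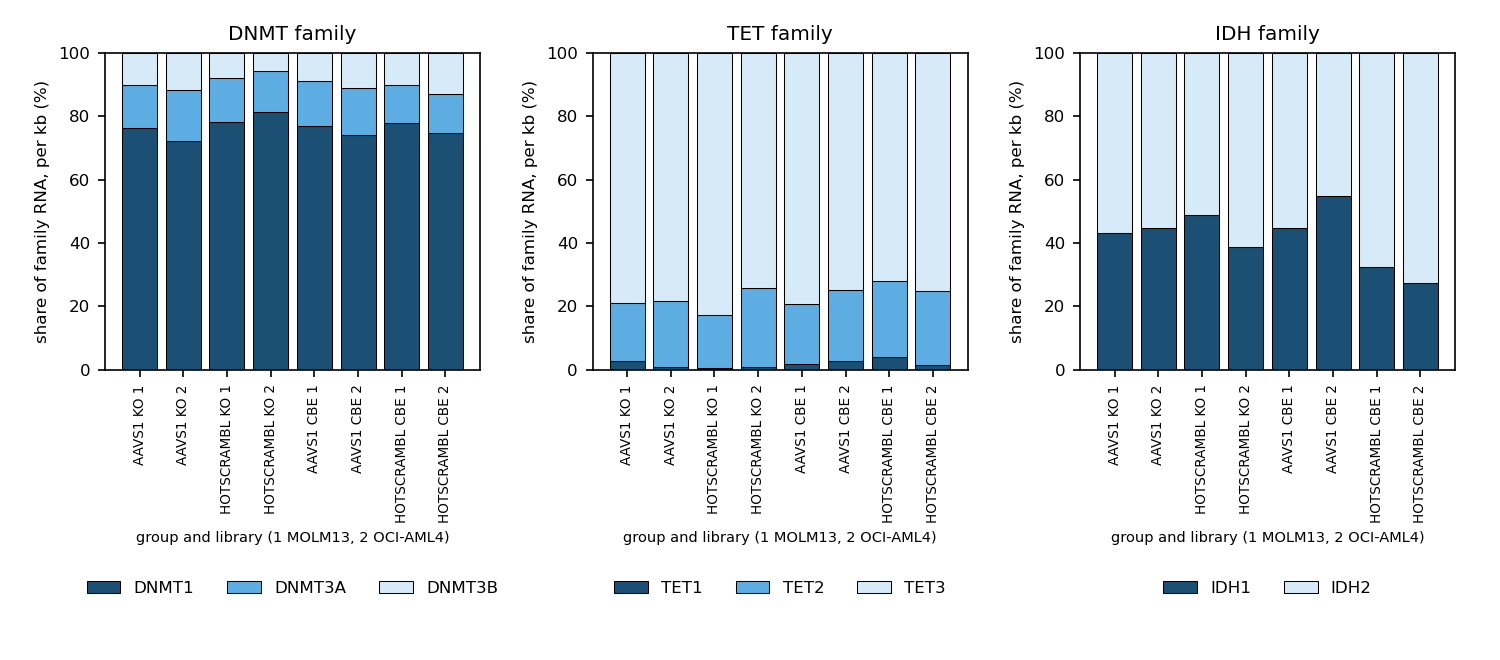
Share of each gene in the length-corrected RNA of its family (vertical axis, percent) in each library (horizontal axis, 1 labelled MOLM13 and 2 labelled OCI-AML4). The DNMT3B share is smallest in the HOTSCRAMBL KO libraries (6.88% on average), TET3 holds most of the TET family everywhere, and the IDH2 share is largest in HOTSCRAMBL CBE (70.2% on average).

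The KO and CBE effects were then tested against each other, a comparison that reuses both sets of libraries. DNMT3B differed, with its KO effect below its CBE effect (log2 difference −1.42, SE 0.375, 95% interval −2.19 to −0.65, edgeR adjusted p 0.0337). It was the only call among 8 members, where 3.19% of tested genes were called, 1.45% lower and 1.74% higher. The call was lost when any single library was left out, with edgeR adjusted p from 0.0738 to 0.223 and differences from −1.71 to −1.14.

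For IDH2 the difference was −1.16 (95% interval −1.86 to −0.46) and missed the threshold at an edgeR adjusted p of 0.0612. It passed with a minimum count of 50 (edgeR adjusted p 0.0485), under DESeq2 (adjusted p 1.6e-04) and under an earlier form of the edgeR fit (adjusted p 0.0313). DNMT1 had a difference of −0.42 (95% interval −0.72 to −0.12, edgeR adjusted p 0.136), which passed under limma-voom (adjusted p 0.0031) and without HOTSCRAMBL KO replicate 2 (edgeR adjusted p 0.0481). DNMT3A (−0.39), TET1 (−2.26), TET2 (−0.45), TET3 (−0.27) and IDH1 (0.05) did not pass, so their KO and CBE effects were not shown to differ.

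The controls of both editors set the background for the members. Between AAVS1 KO and AAVS1 CBE 0 of 8 members and 0% of genes were called by edgeR, with 918 genes and 0 members at an unadjusted p under 0.05. DESeq2 called 35 genes there and 0 members. The log2 differences between controls ran from −0.19 for TET1 to 0.26 for IDH2. Between the libraries labelled MOLM13 and OCI-AML4, 0 of 8 members were called where 0.495% of genes were, and DNMT1 was called by limma-voom alone (log2 difference 0.18, adjusted p 0.0283; edgeR adjusted p 0.545).

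An interaction of the HOTSCRAMBL effect with the line label, tested after the values had been seen, called 0 of 24057 genes by edgeR, with 985 at an unadjusted p under 0.05. IDH1 had prompted it. Under the MOLM13 label its log2 ratios of HOTSCRAMBL to AAVS1 were 0.13 with KO and 0.22 with CBE, and under the OCI-AML4 label they were −0.41 and −0.59. The fitted difference was 0.69 (SE 0.325) with an unadjusted p of 0.0573 and an edgeR adjusted p of 0.982.

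Across the 8 libraries DNMT3A tracked TET3 most closely among the members (r = 0.90 of log2 CPM), and DNMT1 tracked TET1 (r = 0.87) and DNMT3A (r = 0.81). IDH1 and IDH2 had r between −0.19 and 0.43 against every other member and −0.19 with each other. Pairs of DNMT and TET genes ran from 0.33 (TET2 with TET3) to 0.90. These ranges overlapped, since TET2 with IDH2 (0.43) exceeded TET2 with TET3. These values are descriptions over 8 libraries that share groups, line labels and library make-up. Among 12027 other genes above the median level, the closest in pattern were TDP1 and DCAF1 for DNMT1, FOS and KLC1 for DNMT3A, and SHANK1 and VEGFA for DNMT3B, with r from 0.977 to 0.989. For TET1, TET2 and TET3 they were RCC1L and PDP1, SPRY4 and SNHG26, and CEP72 and RPAP1 (r from 0.963 to 0.991). For IDH1 the closest was TAPBPL (r of 0.967), and for IDH2 they were ENSG00000286680 and KDM7A (r of 0.984 and 0.981). With so many candidates and so few libraries, high values of r arise easily.

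The surrounding pathway was described by lists of genes, each given by its counts. The shares to read them against are 8.76% of all tested genes and 16.1% of those above the median level with KO, and 8.83% and 16.8% with CBE. Counts such as 2 of 10 with KO, or 3 of 15 and 3 of 19 with CBE, are near the share of the genes above the median level. Leaving out each of the 8 libraries in turn, the KO calls kept throughout were those of BCAT1, D2HGDH, GADD45B and WT1, and the CBE calls kept were those of BCAT1, D2HGDH, GPT2, MTHFD2, PCNA, SHMT2 and UHRF1; every other list call was lost in at least 1 such fit. Of 10 tested genes of methylation maintenance and partners of the methyltransferases, 4 passed with KO and all were lower. UHRF1 (188 CPM on average in AAVS1 KO, 163 in HOTSCRAMBL KO) and PCNA (57.9 and 81.3 CPM) were not called. HELLS, a chromatin remodeller needed for methylation of repeats, averaged 242 ± 26.9 CPM in the controls and 144 ± 3.32 CPM after editing (SD, n = 2; log2 fold change −0.75, edgeR adjusted p 8.36e-04). CDCA7, which brings HELLS to chromatin, fell by 0.70 on the log2 scale, and so did SMCHD1, a protein of the inactive X chromosome. UHRF2, a relative of the DNMT1 recruiter UHRF1, fell by 0.45. The list's median log2 fold change was −0.32.

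With CBE the same list gave 1 higher and 2 lower calls and a median of −0.02. PCNA, the replication clamp to which DNMT1 binds, rose from 72.0 ± 13.9 to 181 ± 9.01 CPM (log2 fold change 1.34, edgeR adjusted p 3.15e-07). UHRF1, which guides DNMT1 to hemimethylated DNA, fell from 194 ± 4.37 to 111.6 ± 4.57 CPM (log2 fold change −0.80, edgeR adjusted p 8.33e-05), and DMAP1, a DNMT1-binding protein, fell by 0.85. Calls for PCNA and UHRF1 held without each of the 8 libraries in turn. UHRF2 (−0.65) and PCNA (−0.86) passed the test of the difference between editors. Unlike those CBE calls, both differences lost their call without the line term and when any library was left out. In the latter fits they ran from −0.71 to −0.55 for UHRF2 and from −0.97 to −0.72 for PCNA.

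Readers of methylated CpG gave 2 calls of 10 with KO, MBD6 and MBD3, a subunit of the NuRD complex, at −0.61 and −0.62, and 0 calls with CBE by edgeR, where 4 were at an unadjusted p under 0.05 and DESeq2 called 2. Their medians were −0.26 and −0.27. Writers and keepers of the histone marks that steer DNMT3 enzymes gave 4 calls of 11 with KO, all lower, with a median of −0.36. These were NSD2 (−0.68), EHMT1 (−0.55), ATRX (−0.48) and EHMT2 (−0.45). With CBE 3 of 11 were called, EHMT1 (−0.67), DAXX (−0.57) and ATRX (−0.42), all lower, around a median of −0.12.

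Partners of TET enzymes and base excision genes moved in both directions. Of 17 tested with KO, 2 rose and 4 fell, with a median of −0.13. GADD45B, a stress-induced protein linked to active demethylation, rose from 32.1 ± 4.38 to 177 ± 40.2 CPM (log2 fold change 2.46, edgeR adjusted p 1.71e-08), and its relative GADD45G rose by 2.99, with 16 and 78 counts in the controls and 252 and 380 after editing. WT1, which brings TET2 to its targets, fell from 55.8 ± 4.32 to 14.1 ± 3.90 CPM (log2 fold change −1.96, edgeR adjusted p 1.85e-05). OGT, the glycosyltransferase that binds TET proteins, fell by 0.33.

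With CBE only OGT was called in that list, higher by 0.32. The effects differed between editors for GADD45B (2.56, edgeR adjusted p 4.19e-05), WT1 (−2.06, edgeR adjusted p 5.28e-04) and OGT (−0.64, edgeR adjusted p 0.0031). GADD45G also passed this test, and no size is given because it had 0 and 2 counts in HOTSCRAMBL CBE. GADD45B and WT1 kept this call, and the one with KO, without each of the 8 libraries in turn. OGT lost its KO call in 6 of 8 such fits and its CBE call in 4 of 8.

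In the metabolism of 2-oxoglutarate BCAT1 rose and D2HGDH fell with both editors. BCAT1, a transaminase that consumes 2-oxoglutarate, averaged 203 ± 22.6 CPM in AAVS1 KO, 555 ± 66.1 in HOTSCRAMBL KO, 203 ± 5.72 in AAVS1 CBE and 697 ± 60.9 in HOTSCRAMBL CBE (log2 fold changes 1.45 and 1.78, edgeR adjusted p 1.06e-09 and 2.78e-11). D2HGDH, which turns 2-hydroxyglutarate back into 2-oxoglutarate, averaged 182 ± 1.53, 98.3 ± 1.73, 198 ± 7.99 and 95.6 ± 0.537 CPM in the same order (log2 fold changes −0.89 and −1.05, edgeR adjusted p 7.81e-05 and 2.95e-06). Both genes kept both calls without each of the 8 libraries in turn. These comparisons share no library, but both came from the same fit, with the spread pooled over all 8 libraries.

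Of the 19 genes in this list, 1 rose and 4 fell with KO, and 2 rose and 1 fell with CBE, with medians of 0.15 and 0.33. DLST, a subunit of the 2-oxoglutarate dehydrogenase complex, fell with KO by 0.89. GPT2, the mitochondrial alanine transaminase, fell with KO from 133 ± 15.5 to 87.8 ± 7.55 CPM and rose with CBE from 116 ± 13.7 to 223 ± 6.60 CPM. Its effects differed by −1.54 (SE 0.204, edgeR adjusted p 2.53e-05), a call that held without each of the 8 libraries in turn.

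Genes of methyl supply gave 0 calls of 15 with KO by edgeR (2 at an unadjusted p under 0.05, 2 by DESeq2) and 3 with CBE. SHMT2 (1.01) and MTHFD2 (0.87), enzymes of the mitochondrial folate cycle, rose and SLC19A1 (−0.69), the folate carrier, fell on the log2 scale. The medians were 0.09 and 0.07. Of 15 genes listed as imprinted or silenced by methylation only 5 passed the filter on low counts. With KO 0 of the 5 were called by edgeR or DESeq2, and 0 were at an unadjusted p under 0.05, and PEG3, an imprinted gene, was called lower with CBE (−1.51), with 50.9% of its exonic bases shared with other annotated genes. Low recovery of such genes in a pull-down cannot be read as silencing.

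**Figure D4:**
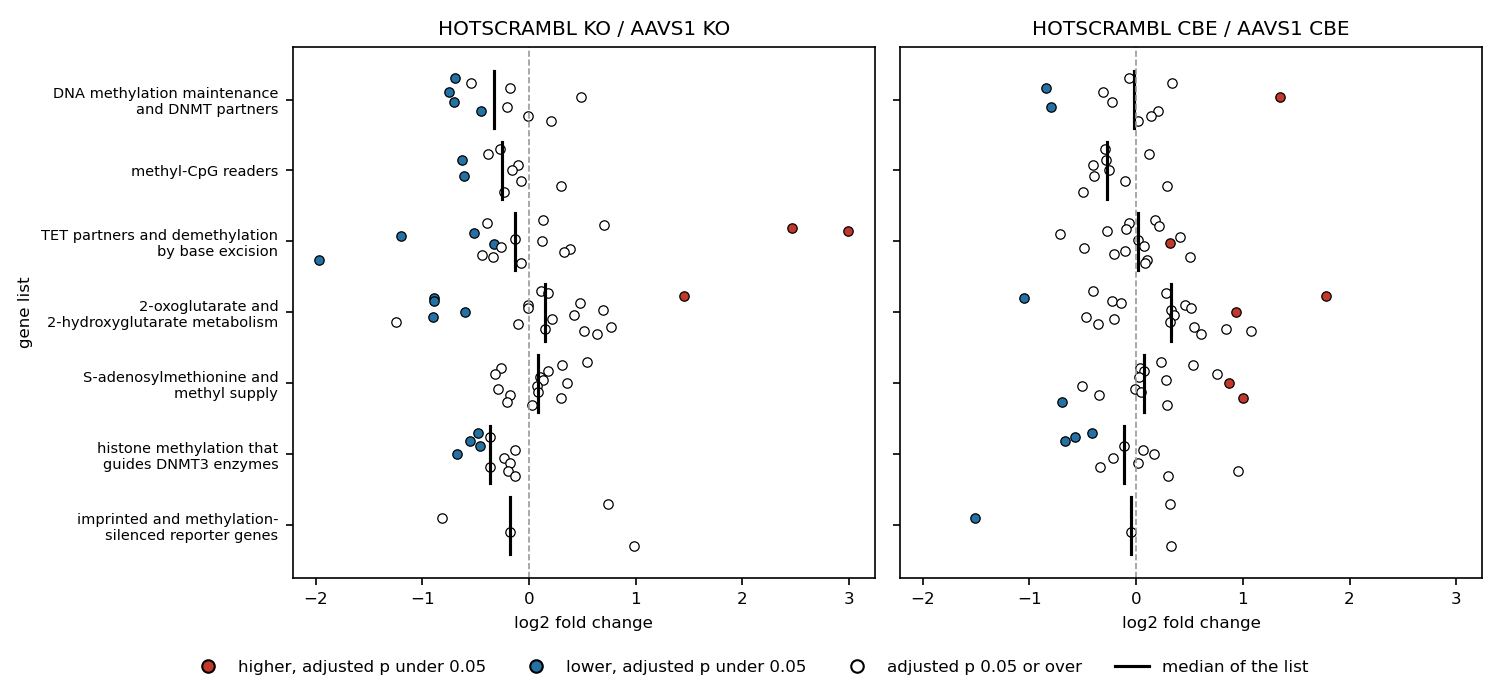
Log2 fold change of each tested gene (points, horizontal axis) in the 7 pathway lists (vertical axis) with KO and with CBE. Red and blue points passed an edgeR adjusted p of 0.05 upward and downward, open points did not, and bars mark list medians. Genes with 3 counts or fewer in a library of the comparison (2 with KO, 3 with CBE) are not drawn. Calls with KO lie below 0 in the maintenance, reader and histone lists, and BCAT1 lies above 0 with both editors.

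Overlap with neighbouring genes bears on a few of these values, since strand was not used in counting. DNMT1 (chromosome 19, 10133342 to 10231286) shares 83 exonic bases with S1PR2, IDH1 (chromosome 2, 208236229 to 208266074) shares 94 with the opposite-strand IDH1-AS1, and TET3 (chromosome 2, 73984910 to 74108176) shares 390 with a gene that had 0 counts. That is at most 3.01% of a member's exonic bases. DNMT3A (chromosome 2, 25227855 to 25342590), DNMT3B (chromosome 20, 32762385 to 32809359), TET1 (chromosome 10, 68560337 to 68694487), TET2 (chromosome 4, 105145875 to 105279816) and IDH2 (chromosome 15, 90083045 to 90102477) share none. Positions are those of GRCh38. Among the list genes named, MTHFD2, MBD3, MBD6, SLC19A1, DAXX and D2HGDH share between 10.3% and 18.6% of their exonic bases with other genes, and their values carry that uncertainty.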

How the data were processed

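RNA from 8 ChIRP libraries was analysed. The authors deposited raw integer counts for each gene, without normalisation. Per the file headers, the counting used featureCounts 2.0.6 with the Ensembl 112 annotation of GRCh38, without strand, multiply placed reads or reads over several genes. Both reads of a pair were counted, so independent fragments are fewer than counts. The aligner is not given in the sources used here.

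Broken records of 2 genes were rejoined, 0 columns of other samples were present, and symbols were found for 62541 of 63140 identifiers (99.05%). Tests used edgeR 4.0.16 under R 4.3.3 (quasi-likelihood F-test, robust, TMM, filterByExpr with a minimum count of 10), with terms for the 4 groups and the labelled line and 3 residual degrees of freedom. Replicate numbers pair libraries because the labels give them the same line. Likeness used log2 CPM with a prior count of 2. A gene of that ranking is not reported here. The 2 libraries of a group differed by a chi-square of 35.7 to 42.8 per degree of freedom.

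The members, gene lists and tests were chosen with earlier results of these data known. All 8 members are named; of each list at most 4 called genes per editor are named, by smallest p. DESeq2 1.42.0, limma-voom (limma 3.58.1), other scalings and filters, the 4 libraries alone, no line term, counts divided by 2 and leaving out each library were alternatives. The procedure was checked on simulated counts with 2-fold and 4-fold changes in genes above the median level and no difference between line labels. The KO changes of DNMT1, DNMT3A and TET3 were smaller, so that check does not cover them.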

Additional observations from a re-analysis of the deposited data

Results flagged for a closer look

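Effects that differed between the editors by the test of the difference itself (edgeR, KO effect minus CBE effect on the log2 scale) were found for 1 member and 8 genes of the lists. DNMT3B differed by −1.42 (adjusted p 0.0337). GPT2 differed by −1.54, WT1 by −2.06 and GADD45B by 2.56, the last with the higher effect under KO. OGT differed by −0.64, NSD2 by −0.84, UHRF2 by −0.65 and PCNA by −0.86. GADD45G is the remaining gene, and no size is given because it had 0 and 2 counts in HOTSCRAMBL CBE. GADD45B, GPT2 and WT1 passed without each of the 8 libraries in turn, and DNMT3B, UHRF2 and PCNA passed in none of those fits. Groups of 2 libraries are too small for a test of single libraries that stand apart.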

How the results depend on the processing

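With KO, 4 of the 8 members were called, 0 with only the 4 KO libraries in the fit, and between 0 and 4 when a library was left out. With CBE, 1 was called, and between 0 and 1 when a library was left out. For the difference between editors 1 was called, 2 with a minimum count of 50, DESeq2, limma-voom or the edgeR fit of versions before 4 (chosen after seeing the data), and between 0 and 1 when a library was left out. Between line labels limma-voom called 1. The lone library of a group left with 1 was assumed to vary like the rest. Without the replicate block, 3 members were called with KO, 1 with CBE and 1 for the difference, and TET3 (adjusted p 0.066) was the call lost. No called member or list gene changed sign under any alternative run.

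Genes called with KO numbered 2108, 780 with the 4 libraries alone and 4150 by DESeq2, and with CBE 2124, 677 and 3350. For the difference 767 were called, 503 without the block and 2204 by DESeq2; between line labels 119, 715 by DESeq2, 265 by limma-voom and 193 by the earlier edgeR fit. Leaving out a library gave 677 to 1674 with KO, 586 to 1885 with CBE, 226 to 372 for the difference and 26 to 65 between labels. Without TMM the split with CBE was 782 higher and 1616 lower in place of 1096 and 1028. Of 21 list genes called with KO, 5 to 7 still passed when 1 KO library was left out, and of 14 with CBE, 8 to 9 when 1 CBE library was. Without division by length, 26 of 32 group means of the family shares moved by more than the SD of their 2 libraries. Depth limits TET1, with 16 counts in its lowest library.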
